A study of Mus musculus with 10 samples.

Results

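The 10 genes described here, H2-K1, H2-D1, H2-Q4, H2-Q7, H2-T23, B2m, Tap1, Tap2, Tapbp and Nlrc5, encode mouse major histocompatibility complex (MHC) class I heavy chains, their light chain, the peptide-loading machinery and a transcriptional activator of the class I genes. They were picked by symbol from the 24385 genes of a read-count table, and all 10 symbols were found. The cells were mouse bone marrow-derived dendritic cells (BMDCs), antigen-presenting cells grown in culture with the growth factor GM-CSF, from wild-type C57BL/6 mice 8 to 10 weeks old. One group was treated for 24 h with AMLE, an apple mango leaf extract, at 400 µg/mL. The other received the vehicle, DMSO at 0.04%, for the same time. RNA sequencing covered 3 AMLE and 3 DMSO libraries. ATAC sequencing, in which a transposase cuts and tags accessible DNA, covered 2 AMLE and 2 DMSO libraries. Whether replicates are separate mice or cultures is not stated. The p-values therefore describe the spread between these libraries, which may be technical.

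MHC class I molecules show peptides cut from proteins inside the cell to CD8+ T cells, and dendritic cells also use them to show peptides from proteins they have taken up. Peptides made by the proteasome are pumped into the endoplasmic reticulum by the transporter TAP, a pair of the proteins TAP1 and TAP2. There tapasin, encoded by Tapbp, holds an empty heavy chain with its light chain, β2-microglobulin, next to the transporter until a peptide binds. Classical heavy chains such as H2-K and H2-D vary greatly between individuals, whereas non-classical ones such as those of the Q and T regions vary little. NLRC5 acts at the promoters of these genes together with factors that bind there, and interferons and NF-κB signals are known to raise their transcription.

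The promoters of the classical genes H2-K1 and H2-D1 and of the non-classical gene H2-Q4 are shown because each holds matches to the same kinds of motif. They are set beside B2m, whose promoter holds exact matches to fewer of the motifs as searched. Similar runs of letters with another spacing stay in lower case. The sequences are the 250 bases before the transcription start in RefSeq, assembly GRCm38.p6 (the mm10 build), which lists a start for 8 of the 10 members. Matches to 4 motifs were searched on both strands: a κB type motif for NF-κB proteins (GGG, then NNTN, then CCC), an interferon-stimulated response element (ISRE) type motif (TTTCNNTTC), the CCAAT box (CCAAT) and the core of the cyclic AMP response element (CRE core, TGACG). Capitals mark matches to any of them, and overlapping κB matches run together. The stretches lie at chr17:34000348-34000597 (minus strand) for H2-K1, chr17:35262844-35263093 (plus strand) for H2-D1, chr17:35379367-35379616 (plus strand) for H2-Q4 and chr2:122147437-122147686 (plus strand) for B2m.
H2-K1: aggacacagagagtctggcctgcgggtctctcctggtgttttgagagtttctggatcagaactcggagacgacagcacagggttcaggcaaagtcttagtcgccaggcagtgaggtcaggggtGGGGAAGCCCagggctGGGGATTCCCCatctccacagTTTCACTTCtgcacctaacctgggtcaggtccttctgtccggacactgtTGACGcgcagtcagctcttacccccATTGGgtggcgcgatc
H2-D1: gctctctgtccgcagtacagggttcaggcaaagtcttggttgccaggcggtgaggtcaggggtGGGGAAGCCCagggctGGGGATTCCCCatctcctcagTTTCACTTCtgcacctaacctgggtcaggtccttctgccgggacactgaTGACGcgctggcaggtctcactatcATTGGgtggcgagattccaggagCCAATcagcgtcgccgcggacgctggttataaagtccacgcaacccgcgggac
H2-Q4: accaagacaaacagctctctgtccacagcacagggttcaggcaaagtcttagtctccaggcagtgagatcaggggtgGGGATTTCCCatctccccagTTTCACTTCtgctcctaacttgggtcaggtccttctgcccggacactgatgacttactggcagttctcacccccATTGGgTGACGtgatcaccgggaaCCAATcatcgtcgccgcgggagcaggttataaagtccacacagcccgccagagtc
B2m: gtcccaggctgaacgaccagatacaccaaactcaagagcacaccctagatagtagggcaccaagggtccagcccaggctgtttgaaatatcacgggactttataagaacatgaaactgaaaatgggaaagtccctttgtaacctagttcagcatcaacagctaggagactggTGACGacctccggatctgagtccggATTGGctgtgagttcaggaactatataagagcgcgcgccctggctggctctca

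In H2-K1 a κB match began 111 bases before the start, the ISRE match 90 bases and the CRE core 41 bases before it, with an inverted CCAAT box at 16 bases. There are 2 listed promoters for H2-K1, and distances are from the first listed start, at 34000347. The printed H2-K1 stretch lies inside the annotated gene span, which runs to 34000619. H2-D1 held the same order of κB, ISRE and CRE matches at 171, 150 and 101 bases before its start. In H2-Q4 the κB and ISRE matches began at 173 and 153 bases and the CRE core at 73 bases, just after an inverted CCAAT box at 79 bases, whereas in H2-K1 and H2-D1 the CRE core came before it. The κB type motif was found in 4 of 8 member promoters, against 4.13% of the 27025 promoters of the table, and the ISRE type motif in 4 of 8 against 6.34%. CCAAT was found in 8 of 8 member promoters against 34.5% of all, and the CRE core in 6 of 8 against 17.9%. All 4 motifs were present in 6 of the 27025 promoters (0.0222%), and 4 of those belong to H2-K1, H2-D1, H2-Q4 and H2-Q7. These genes are copies of one ancestral gene and their promoters are alike in sequence: H2-K1 and H2-D1 matched at 87.4% of 190 aligned bases, and H2-D1 and H2-Q4 at 85.9% of 234. Of the 4 motifs as written, B2m and Tap1 matched only CCAAT and the CRE core, and H2-T23 and Tapbp only CCAAT. The search took exact letters, so elements with other letters or spacing were missed. The B2m stretch holds gaaactgaaa and gggaaagtccc, which resemble the ISRE and κB letters with a longer spacer. H2-T23 holds tttctctttc, which resembles the ISRE letters in the same way. A lack of a match therefore does not show that such an element is absent. A match is a run of letters and not a measured binding site.

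In RNA, all 9 members that could be tested were higher in AMLE-treated cells than in DMSO-treated cells. H2-Q4 and H2-T23 rose most, at 1.79-fold and 1.72-fold, and Tap2 rose least, at 1.14-fold. H2-Q7 had no read in any library. A gene was called where the edgeR quasi-likelihood test gave a Benjamini-Hochberg adjusted p below 0.05 over the 13075 genes tested. The treatment moved much of the transcriptome: 23% of tested genes were called higher and 25.6% lower. In 28.4% every AMLE library lay above every DMSO library, which also held for all 9 tested members. No member was called lower by edgeR, DESeq2 or limma-voom, and 0 members were lower at an unadjusted p below 0.05 in edgeR. The median log2 fold change was 0.49 over the 9 tested members and -0.01 over all tested genes. A rise of at least 1.5-fold, which 10.7% of tested genes reached with a call, was seen for 3 members, H2-K1, H2-Q4 and H2-T23.

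**Figure D1:**
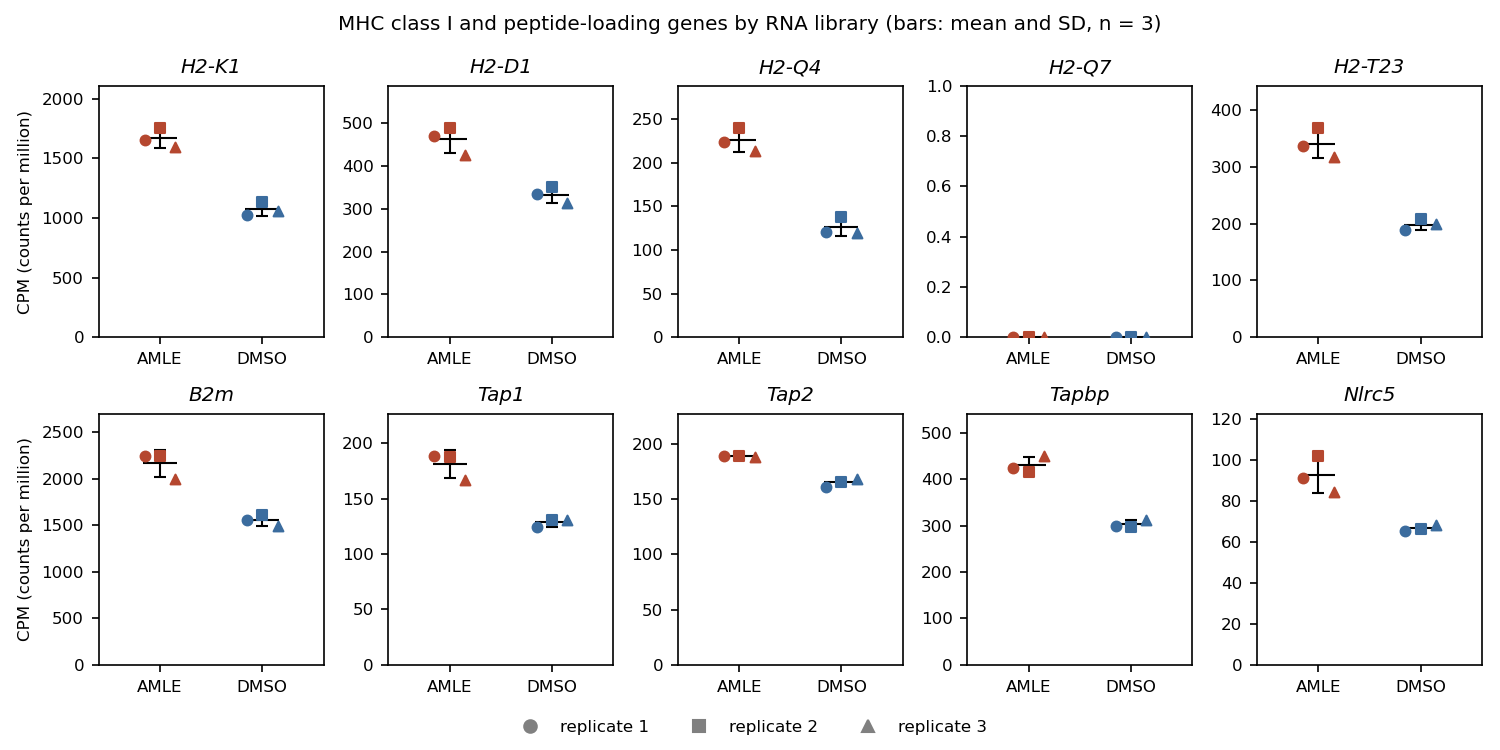
Level of each member in CPM (linear axis from 0) in 3 AMLE and 3 DMSO RNA libraries, with the mean and SD and a symbol for each replicate number. For 9 members the AMLE points lie above all DMSO points, and H2-Q7 is at 0 in all 6 libraries.

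The RNA libraries held 26010455 to 34208286 counts in AMLE and 28457863 to 31413578 counts in DMSO, and the tested members had 1897 to 76969 counts each. AMLE libraries lay between -40.6 and -20.4 and DMSO libraries between 27.5 and 35.7 on the first principal component, which held 80.1% of the variance, with AMLE 3 nearest to the DMSO libraries. Markers of dendritic cells were present in both groups, with a summed level of 7624 to 8692 CPM in AMLE and 6391 to 9658 CPM in DMSO over 9 genes. Of these, 5 were called higher (Flt3 at 4.81-fold, Irf8 at 3.69-fold, Ccr7 at 2.74-fold, Batf3 at 2.42-fold and Zbtb46 at 1.84-fold) and 1 lower, the class II gene H2-Ab1 at 0.617-fold. Macrophage markers summed to 213 to 275 CPM in AMLE and 460 to 781 CPM in DMSO over 8 genes, 6 of them called lower. Adgre1, also on this list, was called higher at 1.16-fold (edgeR adjusted p = 0.031), with a mean of 155.7 CPM in AMLE and 134.2 CPM in DMSO. Mertk was not called. Neutrophil and granulocyte precursor markers summed to 8382 to 11772 CPM in AMLE and 12038 to 19306 CPM in DMSO over 7 genes, 5 of them called lower. Most of this sum came from S100a8 and S100a9, which were not called (edgeR adjusted p = 0.068 and 0.128) and overlapped between the groups. T and NK cell, B cell and stromal markers reached at most 11.9, 24.8 and 3.53 CPM in AMLE and 5.06, 26.2 and 3.00 CPM in DMSO, and of 3 erythroid markers 2 were at 0 in every library. Itgax, Cd74 and H2-Aa, also on the dendritic cell list, were not called, and the summed dendritic cell level overlapped between the groups. The summed macrophage and neutrophil lists were lower, and 5 dendritic cell markers higher, where the members were higher. The part of these cell types in the results was not tested. In bulk RNA, a change in the number of cells of a type and a change in RNA per cell cannot be told apart.

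The classical heavy chains were both higher in AMLE. H2-K1 encodes the H2-K heavy chain and lies at chr17:33996012-34000619 on the minus strand. Levels are given in CPM, counts scaled to library size, and that of H2-K1 was 1658, 1755 and 1597 CPM in AMLE, against 1024, 1134 and 1059 CPM in DMSO. Every AMLE library was above every DMSO library, with means of 1670.1 ± 80.0 CPM in AMLE and 1072 ± 56.1 CPM in DMSO (SD, n = 3 each). That is a 1.56-fold difference, a log2 fold change of 0.64 ± 0.07 (SE) with an edgeR adjusted p of 0.00034. With sign counted, 88.3% of tested genes had a lower log2 fold change, which includes all genes that fell. H2-D1, at chr17:35263094-35267497 on the plus strand, encodes the H2-D heavy chain. It had 471, 489 and 426 CPM in AMLE and 335, 350.2 and 312 CPM in DMSO. The groups did not overlap, although the library numbered 3 was the lowest of each group. AMLE exceeded DMSO by 1.39-fold, a log2 fold change of 0.47 ± 0.07 (SE; edgeR adjusted p = 0.0016).

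The non-classical members H2-Q4 and H2-T23 were higher as well, with larger fold changes than either classical gene. H2-Q4, a gene of the Q region at chr17:35379617-35384674 on the plus strand, had 224, 240.2 and 213 CPM in AMLE and 121, 138 and 120.0 CPM in DMSO. The lowest AMLE library stood well above the highest DMSO library. Its log2 fold change was 0.84 ± 0.07 (SE; edgeR adjusted p = 0.00018), above that of 92.0% of tested genes with sign counted. H2-T23, at chr17:36029977-36032701 on the minus strand, encodes the Qa-1 heavy chain, which natural killer cells read through the receptor NKG2A. It had 336, 368 and 318 CPM in AMLE and 189, 207 and 198 CPM in DMSO. Replicate 2 was the highest of each group and the groups were far apart. Between the groups the log2 fold change was 0.78 ± 0.07 (SE; edgeR adjusted p = 0.00018).

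H2-Q7, which encodes a Qa-2 heavy chain at chr17:35439140-35443773 on the plus strand, had 0 counts in all 6 libraries. A count of 0 allows up to 3 counts, or 0.0875 to 0.117 CPM in the AMLE libraries and 0.0954 to 0.105 CPM in the DMSO libraries, for counting error only. That limit covers reads assigned to this gene alone. Its near-copies H2-Q6 and H2-Q9 were also at 0 in all 6 libraries, and H2-Q8 had 1 count in AMLE 2 and 1 in DMSO 2. The promoters of H2-Q7 and H2-Q6 matched at 97.6% of 210 aligned bases. How reads that fit several near-identical genes were counted is not stated, so a 0 here does not show that no Qa-2 RNA was present. For the same reason the values of H2-Q4, H2-D1 and other heavy chains with close copies are uncertain in size. H2-Q5, a Q region gene outside the members that was chosen after its values were seen, had 36.0, 40.3 and 31.7 CPM in AMLE and 16.5, 19.0 and 13.9 CPM in DMSO. This gene had a log2 fold change of 1.13 ± 0.13 (SE; edgeR adjusted p = 0.00066).

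The light chain and the transporter rose less than H2-Q4. B2m encodes β2-microglobulin, which pairs with every heavy chain above, at chr2:122147687-122153082 on the plus strand. It had 2239.8, 2246 and 1998 CPM in AMLE and 1553, 1605 and 1492 CPM in DMSO. AMLE 3 was the lowest AMLE library and still above all DMSO libraries. Its log2 fold change was 0.48 ± 0.07 (SE; 1.39-fold; edgeR adjusted p = 0.0014). Tap1, one TAP subunit, lies at chr17:34187556-34197225 on the plus strand and had 189, 188 and 167 CPM in AMLE against 124, 131 and 131 CPM in DMSO. AMLE 3 again lay between the other AMLE libraries and the DMSO libraries. The log2 fold change was 0.49 ± 0.06 (SE; 1.41-fold; edgeR adjusted p = 0.00072).

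Tap2, the other TAP subunit at chr17:34204479-34216321, had 189, 189 and 188 CPM in AMLE and 161, 166 and 168 CPM in DMSO. The AMLE libraries were almost level, with an SD of 0.689 CPM in AMLE and 3.62 CPM in DMSO (n = 3 each). The difference was small, a log2 fold change of 0.19 ± 0.04 (SE; edgeR adjusted p = 0.0074). With sign counted, 68.9% of tested genes had a lower log2 fold change. Tapbp, at chr17:33919478-33929290 on the plus strand, encodes tapasin and had 424, 415 and 451 CPM in AMLE against 299, 298 and 313 CPM in DMSO. Here the library numbered 3 was the highest of each group, unlike in the heavy chains. Tapasin RNA was 1.42-fold higher in AMLE, a log2 fold change of 0.50 ± 0.05 (SE; edgeR adjusted p = 0.00036).

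Nlrc5, the transcriptional activator, lies outside the MHC at chr8:94434335-94527272. It had 91.3, 102 and 84.5 CPM in AMLE and 65.3, 66.6 and 68.4 CPM in DMSO. The groups did not overlap, and the spread was wider in AMLE (SD 8.94 CPM) than in DMSO (SD 1.52 CPM). Its log2 fold change was 0.47 ± 0.07 (SE; 1.39-fold; edgeR adjusted p = 0.0018).

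**Figure D2:**
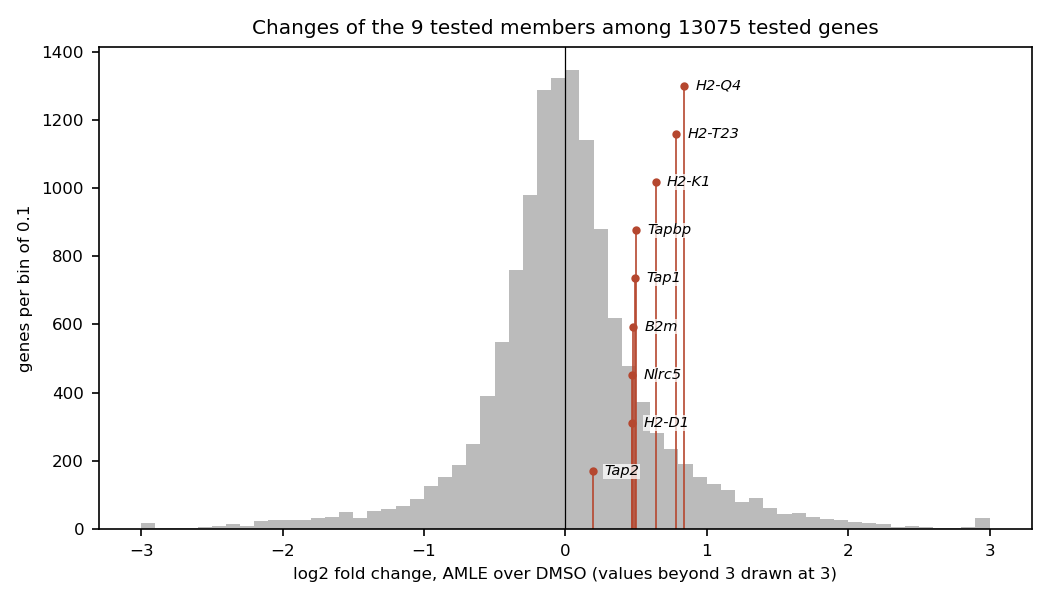
Histogram of the log2 fold change (AMLE over DMSO) of the 13075 tested genes in bins of 0.1, with a red stem for each of the 9 tested members at its own value (stem heights only separate the names). All 9 stems lie to the right of 0, from 0.19 for Tap2 to 0.84 for H2-Q4.

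The comparison of non-classical with classical heavy chains was made within libraries, as ratios of read counts, which cancel library size but are not levels per length. The summed counts of H2-Q4 and H2-T23 over those of H2-K1 and H2-D1 were 0.263, 0.271 and 0.262 in AMLE and 0.228, 0.232 and 0.232 in DMSO. The share of reads from the non-classical pair was thus higher in each AMLE library than in any DMSO library. H2-Q4 over H2-D1 was 0.476, 0.491 and 0.500 in AMLE and 0.361, 0.394 and 0.384 in DMSO, a 1.29-fold difference. H2-Q4 over H2-K1 was 0.135, 0.137 and 0.133 in AMLE and 0.118, 0.122 and 0.113 in DMSO (1.15-fold). The ratio of H2-T23 to H2-D1 was 1.24-fold higher in AMLE than in DMSO, and that of H2-T23 to H2-K1 was 1.10-fold higher. Each of these 4 ratios had an exact two-sided permutation p of 0.1, the smallest that 3 against 3 libraries allow, and 0.114 after adjustment over the 8 pairs compared. With 3 against 3 libraries this test cannot give a p below 0.05. The fitted log2 fold changes had a median of 0.81 for H2-Q4 and H2-T23 and 0.56 for H2-K1 and H2-D1. Other tested non-classical H2 genes lay on both sides of the classical pair. H2-Q10 at 1.08 and H2-T24 at 0.67 were above both. H2-T10 at 0.41, H2-M2 at 0.37 (not called) and H2-M3 at 0.22 were below both. The difference thus describes these members and not the non-classical genes as a class.

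Among the classical genes themselves, H2-K1 over H2-D1 was 3.52, 3.59 and 3.75 in AMLE and 3.05, 3.24 and 3.39 in DMSO, again without overlap. H2-K1 over B2m was 0.740, 0.782 and 0.799 in AMLE and 0.659, 0.706 and 0.710 in DMSO. Between the non-classical genes, H2-Q4 over H2-T23 was 0.667, 0.652 and 0.671 in AMLE and 0.641, 0.666 and 0.605 in DMSO, where the groups overlapped (exact permutation p = 0.2). The subunits of the transporter also changed unequally: Tap1 over Tap2 was 0.999, 0.992 and 0.887 in AMLE and 0.771, 0.788 and 0.780 in DMSO. For this ratio and for H2-K1 over H2-D1 and over B2m the exact permutation p was 0.1.

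**Figure D3:**
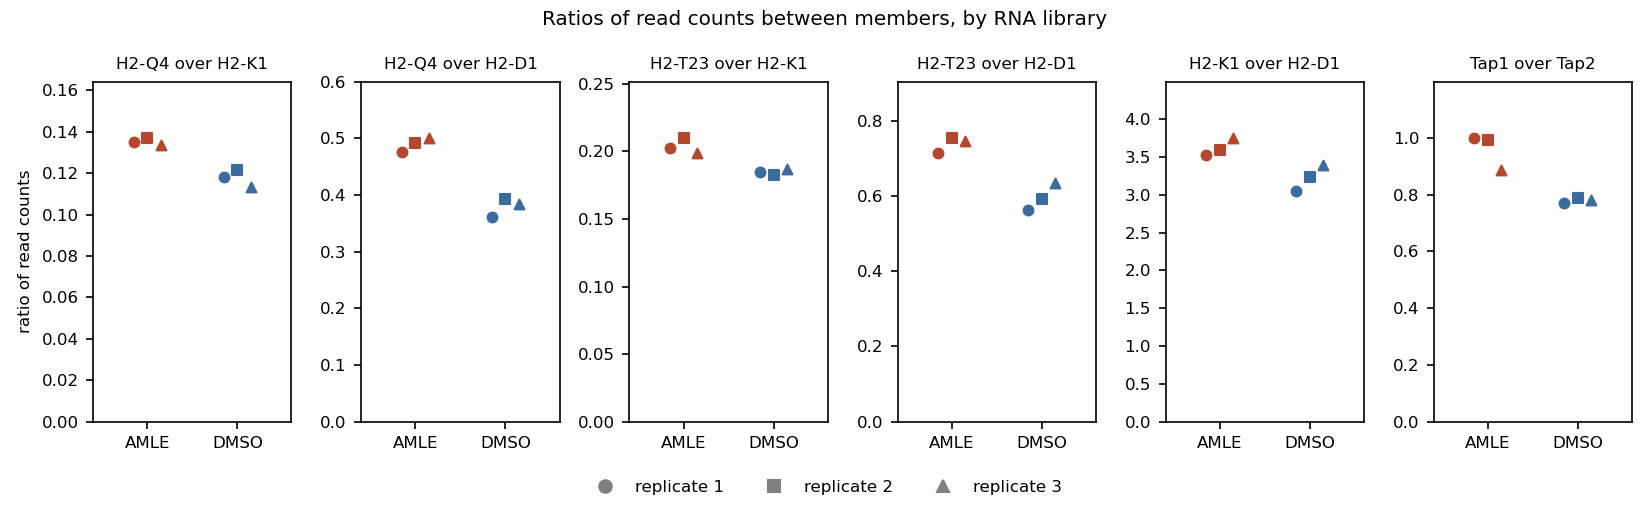
Ratios of read counts between pairs of members in each RNA library (linear axes from 0, a symbol for each replicate number). In these 6 pairs the AMLE points lie above all DMSO points, from 1.10-fold for H2-T23 over H2-K1 to 1.29-fold for H2-Q4 over H2-D1.

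Of 63 other genes of the pathway, listed by role, 52 were tested. Of these, 27 were called higher and 10 lower in AMLE, with a median log2 fold change of 0.16. Over all 13075 tested genes, 3004 were called higher and 3346 lower, with a median of -0.01. Whether the counts of the list or of its roles differ from this background was not tested. Among 21 class Ib and class I-like heavy chains, 10 were tested, 6 were called higher and 1 lower, with a median of 0.39. Cd1d2, a lipid-presenting CD1d copy, had 2.52, 2.57 and 2.18 CPM in AMLE and 1.11, 0.562 and 0.723 CPM in DMSO, a log2 fold change of 1.59 ± 0.26 (SE; edgeR adjusted p = 0.0023). H2-Q10, which encodes a secreted class I chain known mainly from liver, had 1.51, 1.93 and 0.993 CPM in AMLE and 0.985, 0.737 and 0.379 CPM in DMSO. Its log2 fold change was 1.08 ± 0.38 (SE), with an edgeR adjusted p of 0.0496 that was 0.113 without AMLE 1, 0.155 without AMLE 2, 0.114 without DMSO 2 and 0.113 without DMSO 3. Fcgrt, the heavy chain of the neonatal Fc receptor, was the gene called lower. It had 28.5, 30.5 and 30.9 CPM in AMLE and 39.3, 41.2 and 62.4 CPM in DMSO, and its edgeR adjusted p of 0.018 was 0.0648 without AMLE 1 and 0.0518 without AMLE 2. The number called higher in this group was 3 without AMLE 2, 3 without DMSO 1 and 2 without DMSO 2.

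The chaperones of the loading complex went the other way from the members. Of 10 chaperone and trimming genes, 7 were called lower and 2 higher, with a median log2 fold change of -0.27. Pdia3 encodes ERp57, which is bonded to tapasin in the loading complex. It had 403, 372 and 388 CPM in AMLE and 619, 607 and 619.7 CPM in DMSO, a log2 fold change of -0.67 ± 0.05 (SE; edgeR adjusted p = 0.00012). Calr, which encodes calreticulin and was named for its known role, had 845, 785 and 773 CPM in AMLE and 1249.7, 1227 and 1162 CPM in DMSO. Calr was called lower at -0.60. Canx, Uggt1, Ganab, Syvn1 and Bcap31, whose products act in glycoprotein folding, quality control or export, were called lower too, and all 7 serve many proteins besides class I. Tapbpl encodes TAPBPR, a tapasin relative that edits peptides outside the loading complex. It had 63.5, 67.0 and 68.8 CPM in AMLE and 38.5, 37.1 and 37.7 CPM in DMSO, with a log2 fold change of 0.81 ± 0.05 (SE; edgeR adjusted p = 6.7e-05). Lnpep, an aminopeptidase of endosomes, was called higher at 0.31, and Erap1, which trims peptides in the endoplasmic reticulum, was not called, at -0.04 (edgeR adjusted p = 0.60).

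The immunoproteasome cuts proteins into peptides that suit class I. Of its 3 subunits and the 2 subunits of the PA28 activator, 4 were called higher, with a median log2 fold change of 0.48. Psme2, a PA28 subunit, had 324, 345 and 306 CPM in AMLE and 208, 218 and 220.2 CPM in DMSO (log2 fold change 0.59; edgeR adjusted p = 0.00029). Psme1, its partner, had a log2 fold change of 0.54. Psmb9, a catalytic subunit whose gene starts 226 bases from Tap1 and runs in the opposite direction, had 122, 125 and 115 CPM in AMLE and 80.3, 90.4 and 88.2 CPM in DMSO. Its log2 fold change was 0.48, close to the 0.49 of Tap1. Psmb10 had 79.9, 81.3 and 81.0 CPM in AMLE and 75.4, 75.7 and 78.6 CPM in DMSO, and was not called (edgeR adjusted p = 0.17).

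Of 20 transcription factors that act on class I or related promoters, 11 were called higher and 2 lower, with a median log2 fold change of 0.21. Irf8, a factor that dendritic cells need to develop, had 801, 906 and 704 CPM in AMLE and 202, 218 and 234 CPM in DMSO, a log2 fold change of 1.88 ± 0.10 (SE; edgeR adjusted p = 4.6e-05). Irf7, which amplifies type I interferon genes, had 55.0, 47.5 and 39.4 CPM in AMLE and 22.1, 20.1 and 16.1 CPM in DMSO (log2 fold change 1.28). The NF-κB subunit genes Rel, Nfkb1 and Rela were called higher at 1.15, 0.66 and 0.36. Irf1, a known inducer of class I genes, had 189, 196 and 193 CPM in AMLE and 117, 118 and 109.9 CPM in DMSO, a log2 fold change of 0.75. Rfx5, part of the complex to which NLRC5 binds, was called higher at 0.28. Nfyb and Nfyc, subunits of the factor that binds CCAAT, were the genes called lower, both at -0.24. Both were also called lower with the replicate block (edgeR adjusted p = 0.011 and 0.0095). Without single libraries the fold changes kept their sign, and the number called lower was 0 without AMLE 2 and 0 without DMSO 1, and 1 without AMLE 3, without DMSO 2 or without DMSO 3. Ciita, the class II counterpart of Nlrc5, had 89.8, 97.9 and 117 CPM in AMLE and 102, 117 and 154 CPM in DMSO and was not called (edgeR adjusted p = 0.19). With the replicate number as a block it was called lower (edgeR adjusted p = 0.0028), as it was without both libraries numbered 3 (0.0431).

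Of 7 interferon receptor and kinase genes, 4 were called higher and 0 lower. The number called higher was 3 with the replicate block, where Jak1 had an edgeR adjusted p of 0.0567, and 3 with any single library left out. Jak2, a kinase of the interferon-γ receptor, had 1157, 1351 and 1064 CPM in AMLE and 677, 726 and 769.9 CPM in DMSO, a log2 fold change of 0.72 ± 0.10 (SE; edgeR adjusted p = 0.0011). Tyk2, a kinase of the type I interferon receptor, was called higher at 0.28. Ifngr1, the ligand-binding chain for interferon-γ, had 115, 107 and 119 CPM in AMLE and 129, 120.2 and 142 CPM in DMSO. It was not called (edgeR adjusted p = 0.059), and was called lower with the replicate block (0.0085), without AMLE 3 (0.0444) and without DMSO 2 (0.0396).

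**Figure D4:**
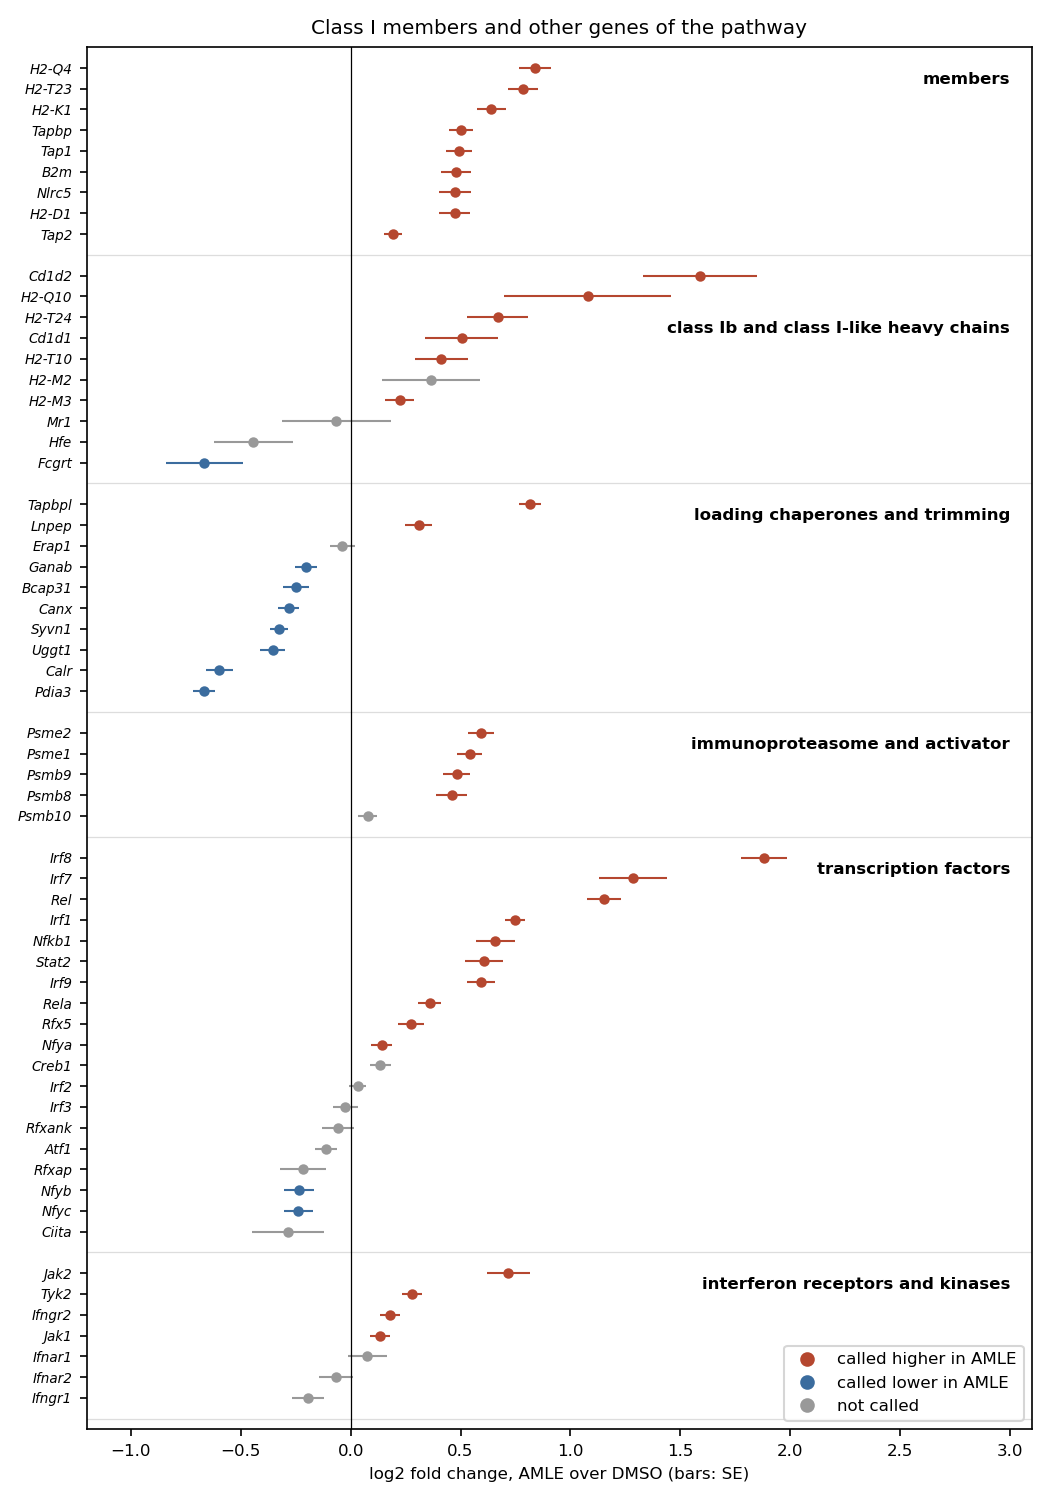
Log2 fold change (AMLE over DMSO) with its SE for the 9 tested members and the tested pathway genes reported here, by role, red where called higher, blue where called lower and grey where not called. All members and 4 of 5 immunoproteasome genes are red, and 7 of 10 chaperone and trimming genes are blue.

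Likeness of pattern was measured as the Pearson r between a gene and the mean standardized level of the 9 tested members over the 6 RNA libraries, among 8955 genes with a mean of at least 10 CPM. The 5 most alike genes were Zfp622, Tmem63b, Nfkb2, Auh and Plekha2, with r of 0.999 or more. Nfkb2 encodes the NF-κB subunit p100 and had 483, 505 and 454 CPM in AMLE and 254, 276 and 263 CPM in DMSO. Such values are common here: 979 genes reached an r of 0.95 and 160 genes 0.99. The 2 groups stand apart, so any gene that separates them has a high r, and no p is given.

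Open chromatin was compared through the peak lists that were deposited for each ATAC library, with 15805 and 15597 distinct intervals in AMLE and 18460 and 19225 in DMSO. These lists hold no counts per library over common regions, so peak presence was compared and peak heights were not tested. A peak lay within 1000 bases of the start of 6 of the 8 members with a listed start, H2-K1, H2-D1, H2-T23, B2m, Tap1 and Tapbp, in all 4 libraries. H2-Q4 and H2-Q7 had none in any library. Among 9978 genes tested in RNA with a listed start, 69.6% had such a peak in both AMLE libraries, 72.6% in both DMSO libraries, 67.8% in all 4 and 19.8% in none. The members' share of 6 in 8 is near that background, which holds genes of any level. Among the 890 of these genes with a mean CPM, not per length, at or above that of H2-Q4, 7.42% had no start peak.

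**Figure D5:**
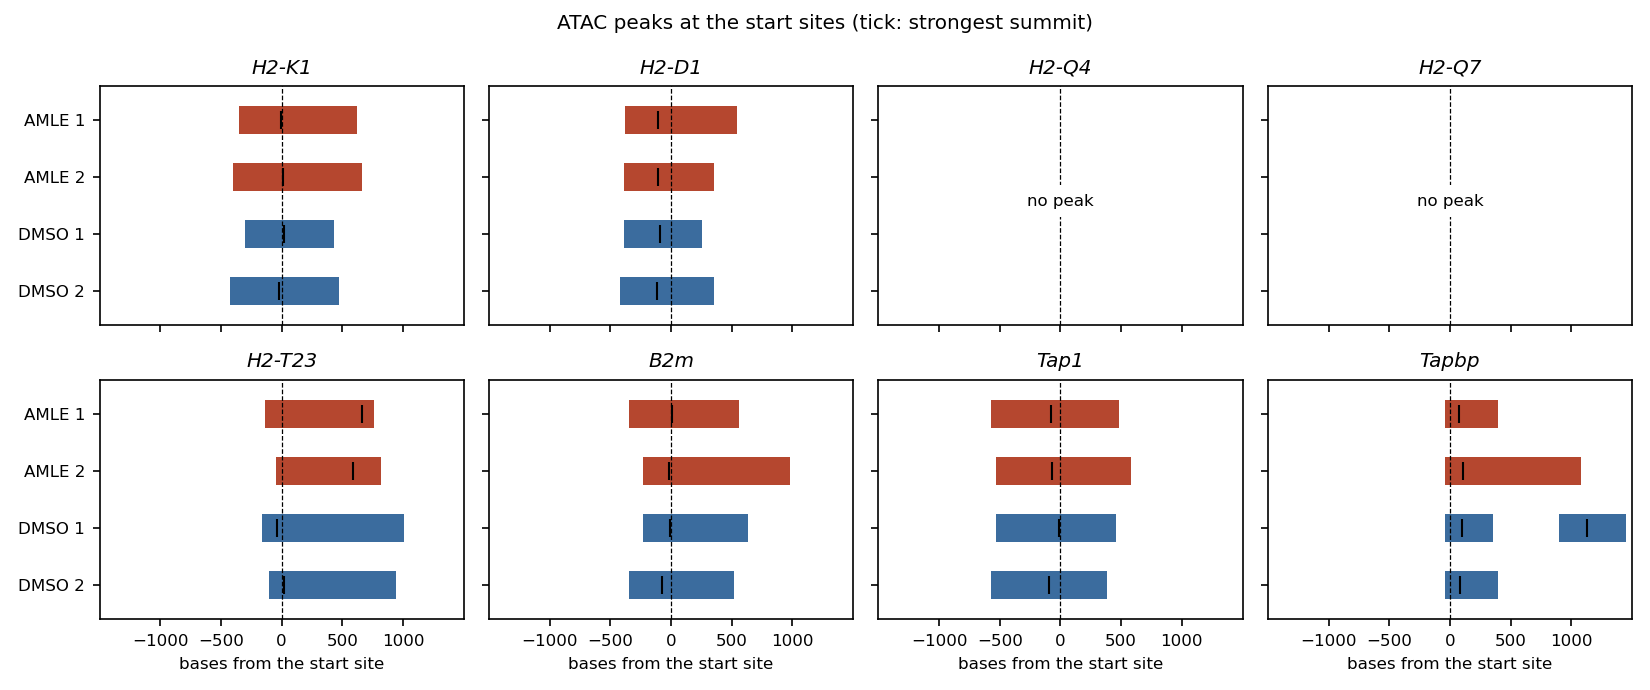
Extent of ATAC peaks around the start site of 8 members in 2 AMLE and 2 DMSO libraries, as bases from the start in the direction of transcription, with a tick at the strongest summit. H2-K1, H2-D1, H2-T23, B2m, Tap1 and Tapbp have a peak in all 4 libraries, and H2-Q4 and H2-Q7 have none.

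The peaks at H2-K1, H2-D1 and Tap1 covered the whole 250 bases before the start in all 4 libraries, so the printed κB, ISRE and CRE matches of H2-K1 and H2-D1 lay within them. The fold enrichment over local background that the authors give for each peak was 13.3 and 13.2 in AMLE and 14.5 and 16.8 in DMSO at H2-K1. At H2-D1 it was 8.99 and 8.21 in AMLE and 10.4 and 11.6 in DMSO. At B2m it was 11.2 and 9.49 in AMLE and 12.2 and 13.3 in DMSO. These heights describe a peak within its own list and were not compared between groups. At Tap1 they were 13.9 and 13.0 in AMLE and 12.9 and 12.9 in DMSO, and at Tapbp 4.52 and 4.57 in AMLE and 4.29 and 4.26 in DMSO. The Tap1 peak also covered the start of Psmb9.

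H2-T23 differed among libraries in the shape of its peak. In AMLE 1 its one summit lay 660 bases after the start, and in AMLE 2 its one summit lay at 591 bases. In DMSO 1 summits lay 35 bases before the start and 287 and 632 bases after it, and in DMSO 2 at 17, 229 and 668 bases after it. The peak covered 54.8% and 18.0% of the 250 bases before the start in AMLE and 64.4% and 40.8% in DMSO. Its fold enrichment was 3.39 and 4.48 in AMLE and 6.65 and 5.44 in DMSO, the authors' values, and the difference was not tested. With a stricter −log10 q of at least 5, the number of members with a start peak in both libraries was 5 in AMLE and 6 in DMSO, because H2-T23 then dropped out in AMLE.

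H2-Q4, the member with the largest rise in RNA, lay in a stretch of 214.4 kb without a peak in any library, chr17:35302260-35516652. Of the 10 genes with a listed start in it, 2 were tested in RNA, H2-Q10 and H2-Q4. H2-Q5, a transcribed pseudogene in RefSeq, also lies in it. The nearest peak to the H2-Q4 start was 77.4 kb away in all 4 libraries. Whether reads that fit several near-identical genes were kept before peak calling is not stated, so a lack of peaks in this stretch does not show closed chromatin.

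Across all members, 24 distinct ATAC regions lay in a gene or within 10 kb of it. Of these, 15 were found in all 4 libraries, against 49.0% of the 24542 regions of the genome. The 24 lie in or near genes and include start peaks, whereas the genome share covers regions wherever they lie. The shares are therefore not like for like. None of the 24 was found only in both AMLE libraries (0.460% of all regions) and none only in both DMSO libraries (5.95%). The other 9 were present in 1 library or split between the groups: 2 in 1 DMSO library, 3 in 1 AMLE and 1 DMSO library, 2 in 1 AMLE and both DMSO libraries, and 2 in both AMLE and 1 DMSO library. Tapbp had 5 regions and Tap1 had 3, all of them in all 4 libraries. At Nlrc5 a region at the lower end of the gene, chr8:94433798-94434431, was found in AMLE 2 and both DMSO libraries, with fold enrichments of 5.98 in AMLE 2 and 4.68 and 6.74 in DMSO. At Tap2 a region inside the gene, chr17:34205545-34206147, was found in all 4 libraries, and chr17:34210553-34210938 in AMLE 2 and both DMSO libraries.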

How the data were processed

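Groups and replicate numbers came from the sample titles. Raw counts of reads for each gene symbol are as deposited by the authors, from stranded poly(A) libraries per the labels' protocols. For ATAC they deposited a peak list per library, in which the authors give each summit a fold enrichment (a ratio) and a −log10 q-value. STAR 2.7.11b, Bowtie2 2.4.4, MACS3 3.0.0a7 and the build mm10 are among the names in the submitters' processing notes, which give no roles. How reads were counted and by which annotation is not given in the sources used here.

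Counts were tested with edgeR 4.0.16 in R 4.3.3 (TMM factors, filterByExpr, robust quasi-likelihood F test, two-sided, group as the only term), which left 13075 of 24385 genes; 6459 had no count. CPM values use TMM-adjusted library sizes, and an SE was taken from F as the size of the log2 fold change divided by its root. The labels do not say whether the replicate numbers pair the samples. Same-numbered libraries deviated together (r = 0.46, 0.37 and 0.51 over 8964 genes). AMLE 1 and DMSO 2, with unlike numbers, also did (r = 0.31), so pairing is not settled. A fit with the number as a block was run as an alternative. Peak rows of one interval were merged, and peaks counted as shared from 1 base of overlap. Start sites and promoters are those of RefSeq (GRCm38.p6). Gene spans come from the same assembly and strand is printed where a promoter gives it. Exon lengths were not used here, so levels are not compared between genes, apart from a cut by CPM for start peaks.

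The members, lists and motifs were chosen with earlier results of these data known. In each pathway role the named genes are the 2 called genes with the largest change and a mean of at least 1 CPM, and calls in the minority direction where 5 or fewer; Calr, the other chaperones, Erap1, Psmb9, Psmb10, Nfkb1, Rel, Rela, Irf1, Rfx5, Ciita, Ifngr1 and the heavy chains at 0 were added for their known roles after values were seen. Alternatives were DESeq2 1.42.0, limma-voom (limma 3.58.1), RLE factors, no filter, the block, and libraries left out. One gene of the pathway list enters the counts but is not reported here by name.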

Additional observations from a re-analysis of the deposited data

How the results depend on the processing

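All 9 tested members stayed called higher with DESeq2, limma-voom, RLE factors, no filter, each library left out in turn, and without both libraries numbered 3. Their largest adjusted p was that of Tap2, at most 0.0380 (without DMSO 1). With the replicate block, which treats same-numbered libraries as pairs, the 9 members were called too. It called 3434 genes higher and 3813 lower, and it ended no call of a member. The median log2 fold change of H2-Q4 and H2-T23 less that of H2-K1 and H2-D1 was 0.24 to 0.27. Counting only peaks that themselves reach a gene body, ATAC regions numbered 12, 7 of them with such a peak in all 4 libraries. They numbered 59 within 50 kb, 37 of them in all 4, by construction of the window. Levels per length were not run. Having 2 ATAC libraries per group and peak lists without counts limits what openness can show, and 3 against 3 RNA libraries limit the ratios.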
